A study of Mus musculus with 2 samples.

Results

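Neuronal tubulins and microtubule-associated proteins were followed through 10 genes in 2 libraries of mouse medulloblastoma, a tumour of the cerebellum. The genes were listed by symbol, with earlier results of these data known. The beta-tubulins were Tubb2a, Tubb2b, Tubb3, Tubb4a and Tubb5, and the alpha-tubulin was Tuba1a. Map2 and Mapt stood for microtubule-associated proteins, and Stmn1 and Stmn2 for stathmins. As written, 9 of the 10 symbols appeared in the deposited files, and Map2 was found under its older symbol Mtap2. All 10 were among the 23746 records of the table and among the 13279 that reached 1 FPKM in one library or both, called expressed here.

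RNA sequencing was done on total RNA of dissected tumour tissue, 1 library per genotype. The knockout library, Brg1KO, came from tumour tissue with the genotype CAG-CreER, Rosa26-SmoM2, Brg1F/F. The wild-type library, WT, came from tumour tissue with CAG-CreER, Rosa26-SmoM2, Brg1+/+. Both therefore carried the activated Smoothened allele SmoM2, which switches on Hedgehog signalling, and a tamoxifen-inducible Cre that the labels do not limit to tumour cells. Both received tamoxifen, 10 injections given on alternate days, so the drug and the Cre do not separate the groups. The sources used here give neither the age of the mice nor how many animals stand behind a library. Brg1 is the protein of Smarca4, the ATPase of a chromatin remodelling complex.

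Microtubules are hollow polymers of alpha- and beta-tubulin pairs. Mammals encode several isotypes of each, which differ most in the acidic tail at the carboxyl end, where enzymes add glutamate or glycine chains. Neuronal precursors and young neurons are known for Tubb5, Tubb2b, Tuba1a, Tubb3 and the tubulin-binding stathmins. Adult brain is known for Tubb2a, Tubb4a and the structural proteins Map2 (dendrites) and Mapt (tau, axons). On this textbook basis Tubb2a, Tubb4a, Map2 and Mapt were called mature-type, and the other 6 genes immature-type. The border is not sharp, since Tubb3 and Stmn2 are neuronal genes that dividing precursors express little.

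The beta-tubulin isotypes are represented here by the last 60 bases of their coding sequence, stop codon included, because that stretch encodes the tail and because reads from closely matching stretches are hard to assign. Sequences are from GENCODE M21 transcripts on mm10, 5′ to 3′ in the sense of the gene, and capitals mark bases that differ from Tubb5 when the whole coding sequences are aligned. Bases with no partner in Tubb5 are capitals too, while Tubb5 bases missing from the gene shown carry no mark.
Tubb2a: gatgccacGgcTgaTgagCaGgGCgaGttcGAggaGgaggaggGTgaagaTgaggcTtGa
Tubb2b: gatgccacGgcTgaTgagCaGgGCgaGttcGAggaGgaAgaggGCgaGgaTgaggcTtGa
Tubb4a: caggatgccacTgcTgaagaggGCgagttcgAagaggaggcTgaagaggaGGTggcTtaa
Tubb3: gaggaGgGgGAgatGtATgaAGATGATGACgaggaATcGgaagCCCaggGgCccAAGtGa
Tubb5: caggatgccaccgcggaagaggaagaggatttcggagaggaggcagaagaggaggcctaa
By the capitals, Tubb3 differed from Tubb5 at 29 of these 60 bases and Tubb4a at 10. The Tubb4a count leaves out gaps: its whole coding sequence has 212 capitals but differs from Tubb5 at 215 aligned positions. Tubb2a and Tubb2b, neighbours on chromosome 13, differed from each other at 3. Over the whole coding sequence Tubb2a and Tubb2b were 96.5% identical, with an identical run of 551 bases. Tubb5 shared 84.6% of aligned positions with Tubb2a, 83.9% with Tubb4a and 81.4% with Tubb3.

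These likenesses bear on how far each value can be trusted. Of the 50-base words in its transcripts, Tubb3 and Mapt shared 0 with any transcript of another gene, Tubb5 0.0892%, Map2 0.166%, Tubb4a 0.184% and Stmn2 0.893%. Stmn1 shared 18.9%, chiefly with the record Gm11223. Tubb2b shared 36.9% and Tubb2a 49.6%, chiefly with each other, and Tuba1a shared 75.5%, most of all with Tuba1c. With 100-base words the shares were 26.0% for Tubb2b, 36.9% for Tubb2a and 65.8% for Tuba1a. The sources used here do not say how reads with several matches were handled, so the split between Tubb2a and Tubb2b and between Tuba1a and its close copies is uncertain. In the annotation, exons of Tuba1a overlap a same-strand gene model, Gm49450, by 473 bases. Exons of Map2 overlap the antisense gene Gm10558 by 124 bases. Exons of Stmn1 overlap the same-strand miRNA gene Gm23634 by 66 bases. The libraries are not stated to keep strand.

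A second limit is in the deposited numbers themselves. Each FPKM (fragments counted on a gene, divided by its transcript length and by the size of the library) comes with a lower and an upper bound, yet 14 of the 20 values of the 10 genes lay outside their own bounds, 13 of them below and 1 above. Among all records of at least 1 FPKM this was so for 52.0% in the Brg1KO library and 52.5% in the WT library. The bounds were therefore not read as an error of the FPKM, and ratios from their midpoints are given for the 10 genes and for the other genes whose ratios moved most. Each genotype has 1 library, so no difference given here has a replicate check, a test or a p-value, and "higher" and "lower" compare these 2 libraries. Ratios are log2((Brg1KO FPKM + 1)/(WT FPKM + 1)), and a ratio of at least 1 or at most -1 is called 2-fold.

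Smarca4 had 3.76 FPKM in the Brg1KO library and 14.0 FPKM in the WT library. Xist had 0.369 FPKM in the Brg1KO library and 268 FPKM in the WT library. The libraries may therefore come from mice of different sex, which cannot be told apart from genotype. FPKM summed to 343028 in the Brg1KO library and 388032 in the WT library, and the median log2 ratio of all expressed records was 0.09. Rescaling both libraries to the same sum moved this median to 0.24. Precursor and cell cycle markers were all lower, 9 of 9 by at least 2-fold, with a summed level of 226 FPKM in the Brg1KO library and 913 FPKM in the WT library. Mature granule neuron markers (8 of 8 at least 2-fold higher, summed 541 and 101 FPKM in Brg1KO and WT) and Purkinje cell markers (7 of 7, 595 and 7.87 FPKM) were higher. Markers of GABAergic neurons, a class that includes Purkinje cells, were higher for 5 of 5 (402 and 13.2 FPKM in Brg1KO and WT). So were astrocyte and Bergmann glia markers (7 of 7, 2369 and 408 FPKM in Brg1KO and WT). Microglia markers were higher for 5 of 6 (74.9 and 23.9 FPKM in Brg1KO and WT), endothelial markers for 2 of 5 (99.7 and 30.9 FPKM) and choroid plexus markers for 0 of 4 (1099 and 1044 FPKM). Most of the choroid plexus sum was Ttr in both libraries (1070 and 997 FPKM in Brg1KO and WT). Most of the endothelial sum in Brg1KO was Ly6c1 (66.5 FPKM, and 10.2 FPKM in WT). Oligodendrocyte precursor markers were lower for 3 of 4 (61.8 and 179 FPKM in Brg1KO and WT). None of these markers was listed at 0 in either library. In tissue RNA, fewer cells of a type and less RNA per cell cannot be told apart, and the part of cell composition in the results below was not tested.

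Of the 10 genes, 4 were at least 2-fold higher in the Brg1KO library and 1 was lower, with 5 within 2-fold. Of all 13279 expressed records, 16.1% passed the rule upward and 8.67% downward. The median log2 ratio of the 10 genes was 0.74, and their range was -1.26 to 1.65. With a 1.5-fold limit 6 of the 10 genes were higher and 2 lower, where 28.1% and 18.0% of all expressed records were. With a 4-fold limit the counts were 0 and 0, where 4.17% and 1.5% of the records were higher and lower. At the 2-fold limit the higher genes were Stmn2, Mapt, Tubb2a and Tubb4a, and the lower gene was Stmn1. Mature-type genes made up 3 of the 4 higher ones, and Stmn2, counted as immature-type, was the fourth.

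**Figure D1:**
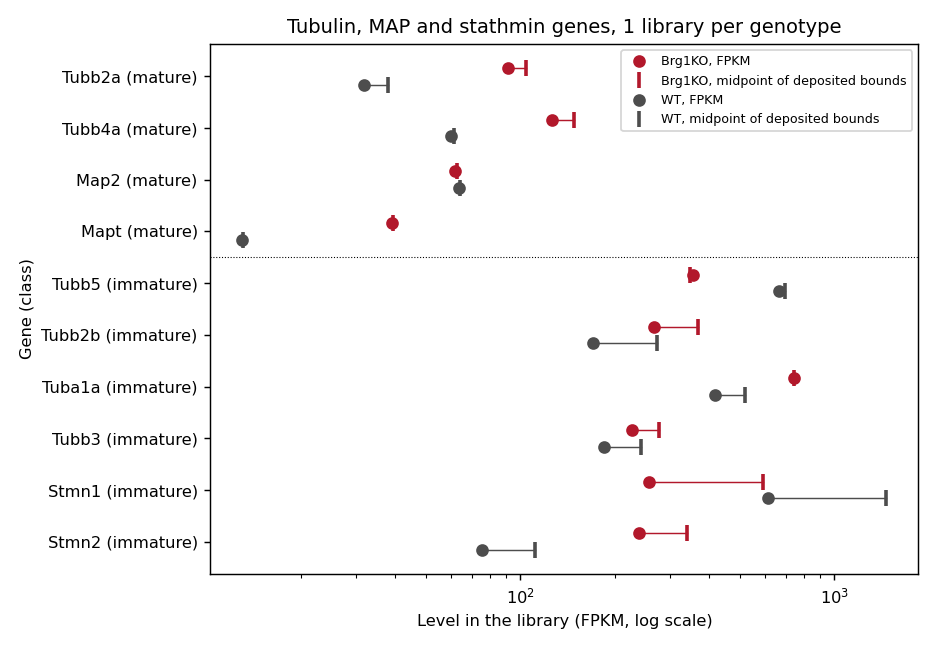
Level of each gene (FPKM, log axis) in the Brg1KO library (red) and the WT library (grey), mature-type genes above the dotted line; dots are FPKM, vertical ticks the midpoints of the deposited bounds, 1 library per genotype. Mapt, Tubb2a, Tubb4a and Stmn2 lie further right in Brg1KO, Tubb5 and Stmn1 further left, and the Map2 points nearly coincide; for Stmn1 the midpoints (591 and 1462 in Brg1KO and WT) lie far above the FPKM.

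Among the beta-tubulins, Tubb5 is the general isotype of dividing and young cells (chromosome 17, 35833920 to 35838301, mm10). It had 355 FPKM in the Brg1KO library and 666 FPKM in the WT library. The Brg1KO level was 53.3% of the WT level, with a log2 ratio of -0.91, just inside the 2-fold rule. From the bound midpoints the ratio was -0.997, still inside by a small margin. Tubb5 was the most abundant of the 10 genes in WT and stood below Tuba1a in Brg1KO.

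Tubb2b is an isotype of migrating and growing neurons (chromosome 13, 34127008 to 34130354). Its level was 266 FPKM in the Brg1KO library and 170 FPKM in the WT library, a log2 ratio of 0.64, or 0.42 from the midpoints. Its neighbour Tubb2a (chromosome 13, 34074280 to 34078008), the copy that gains in the maturing brain, had 91.4 FPKM in the Brg1KO library and 31.9 FPKM in the WT library (log2 ratio 1.49, or 1.43 from the midpoints). Both copies were higher, and Tubb2a passed the 2-fold rule while Tubb2b did not. The Tubb2b ratio lay inside the interquartile range of all expressed records, -0.41 to 0.68. The ratio of Tubb2a to Tubb2b was 0.344 in Brg1KO and 0.188 in WT, so Tubb2b remained the more abundant copy in both libraries. From the midpoints the same ratio was 0.283 in Brg1KO and 0.139 in WT.

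Tubb3, the neuron-specific isotype used as a marker of young postmitotic neurons, lies on chromosome 8 (123411564 to 123422010). It had 227 FPKM in the Brg1KO library and 184 FPKM in the WT library. The log2 ratio of 0.30 (0.19 from the midpoints) was well inside the 2-fold rule and within the interquartile range of all expressed records, which ran from -0.41 to 0.68. Tubb3 thus differed less between the libraries than Tubb5, and the ratio of Tubb3 to Tubb5 was 0.641 in Brg1KO and 0.277 in WT.

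Tubb4a is an isotype of the adult brain that is abundant in myelinating oligodendrocytes (chromosome 17, 57080066 to 57087782). Its level was 126 FPKM in the Brg1KO library and 60.3 FPKM in the WT library (log2 ratio 1.06). It lay close to the 2-fold limit, with 0.97 when ratios were centred on the median of all expressed records and 1.25 from the midpoints. Oligodendrocyte markers were at least 2-fold higher for 8 of 8 genes, with a summed level of 717 FPKM in the Brg1KO library and 71.1 FPKM in the WT library. Their part in the Tubb4a value was not tested. The ratio of Tubb4a to Tubb5 was 0.357 in Brg1KO and 0.0906 in WT.

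Shares within a library do not depend on how the library is scaled. The 8 beta-tubulin genes summed to 1185 FPKM in the Brg1KO library and 1301 FPKM in the WT library, 0.91-fold. Within this nearly equal sum, Tubb5 held 29.9% in Brg1KO and 51.2% in WT. Tubb2b held 22.4% and 13.0%, Tubb3 19.2% and 14.2%, Tubb4a 10.7% and 4.63%, and Tubb2a 7.72% and 2.45% in Brg1KO and WT. Tubb4b, another widely expressed isotype, held 9.74% in Brg1KO and 14.2% in WT, and Tubb6 held 0.276% and 0.389%. Tubb2a and Tubb2b summed, which avoids the uncertain split between them, held 30.2% in Brg1KO and 15.5% in WT. Tubb5, Tubb4b and Tubb6 thus held smaller shares in Brg1KO, and Tubb2b, Tubb3, Tubb4a and Tubb2a larger ones.

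Tuba1a, the main alpha-tubulin of developing neurons (chromosome 15, 98949847 to 98953501), had the highest level of the 10 genes in Brg1KO. It had 741 FPKM in the Brg1KO library, where it ranked 24 of 23746 records, and 416 FPKM in the WT library, where it ranked 123. The log2 ratio was 0.83, with 0.52 from the midpoints and 1.01 after rescaling to the same sum. The call therefore turned on the scaling. The 8 alpha-tubulin genes summed to 881 FPKM in the Brg1KO library and 614 FPKM in the WT library. Of this sum Tuba1a held 84.1% in Brg1KO and 67.7% in WT.

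Tuba1b, Tuba4a and Tuba8 differed more between the libraries than Tuba1a did. Tuba1b, a close copy expressed in dividing cells, had 57.5 FPKM in the Brg1KO library and 178 FPKM in the WT library (log2 ratio -1.61, or -1.82 from the midpoints), and its share was 6.53% in Brg1KO and 29.0% in WT. Tuba4a, which is made without the usual terminal tyrosine codon, had 57.4 FPKM in the Brg1KO library and 2.73 FPKM in the WT library (log2 ratio 3.97). Tuba8 had 7.97 FPKM in the Brg1KO library and 0.148 FPKM in the WT library. Tuba1c, the third close copy, had 17.0 FPKM in Brg1KO and 17.7 FPKM in WT. Tuba1a, Tuba1b and Tuba1c share much of their sequence, 98.3% of aligned coding positions for Tuba1a and Tuba1b. Summed, they held 92.6% of the alpha-tubulin sum in Brg1KO and 99.5% in WT.

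**Figure D2:**
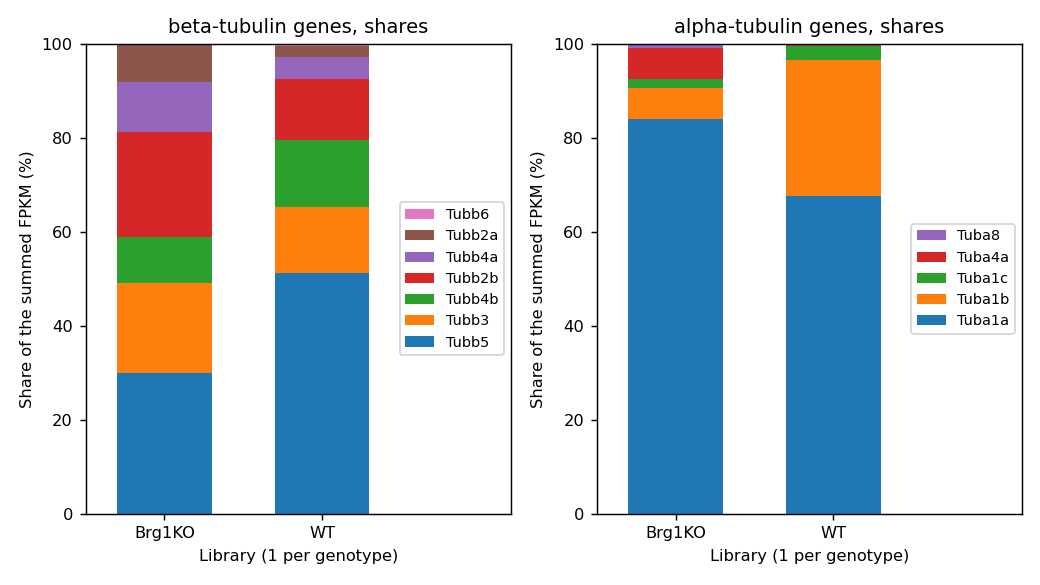
Share of each gene (%) in the summed FPKM of the beta-tubulin genes (left) and of the alpha-tubulin genes (right), in the Brg1KO library and the WT library, 1 per genotype; genes under 1 FPKM in both libraries are not drawn. Tubb5 fills 29.9% of the beta-tubulin bar in Brg1KO and 51.2% in WT, and Tuba1b 6.53% of the alpha-tubulin bar in Brg1KO and 29.0% in WT.

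The structural proteins Map2 and Mapt did not move together. Map2 (chromosome 1, 66175329 to 66442583), which bundles dendritic microtubules, had 62.0 FPKM in the Brg1KO library and 63.6 FPKM in the WT library. Its log2 ratio was -0.04, also from the midpoints, the closest to 0 of the 10 genes, and both FPKM lay within their bounds. The sign of so small a ratio depended on scaling, but Map2 stayed within 2-fold under every scaling tried. Precursors and adult neurons use different splice forms of Map2, and a value per gene does not show a change between them.

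Mapt, the tau gene (chromosome 11, 104231436 to 104332093), had 39.0 FPKM in the Brg1KO library and 13.0 FPKM in the WT library. The FPKM as deposited, with none added, was 2.99 times as high in Brg1KO (log2 ratio with 1 FPKM added 1.51, and 1.52 from the midpoints), and both FPKM lay within their bounds. By level Mapt was the lowest of the 10 genes in both libraries, ranking 1640 in Brg1KO and 4940 in WT among all records. Of the genes with almost no sequence shared with others, Mapt and Stmn2 differed most.

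The stathmins bind free tubulin pairs and promote the shrinkage of microtubules, and the 2 listed members went opposite ways. Stmn1, abundant in dividing and immature cells (chromosome 4, 134468320 to 134473843), had 257 FPKM in the Brg1KO library and 615 FPKM in the WT library. The Brg1KO level was 41.7% of the WT level (log2 ratio -1.26). Its bounds lay far from the FPKM, at 582 to 601 in Brg1KO and 1444 to 1480 in WT. The midpoints were 2.30 times the FPKM in Brg1KO and 2.38 times in WT. The level of Stmn1 thus depends on which deposited value is used, while the ratio of the midpoints, -1.30 on the log2 scale, was close to that of the FPKM.

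Stmn2, a growth cone stathmin of neurons (chromosome 3, 8509527 to 8561604), had 239 FPKM in the Brg1KO library and 75.4 FPKM in the WT library. With a log2 ratio of 1.65 (1.60 from the midpoints) it was the most increased of the 10 genes. The ratio of Stmn2 to Stmn1 was 0.931 in Brg1KO and 0.123 in WT, a 7.59-fold difference and the widest of the 7 ratios examined. From the midpoints Stmn2 stood at 0.574 of Stmn1 in Brg1KO and 0.0759 in WT, so its difference between libraries was nearly the same. The remaining stathmin genes, named to complete the family after their values were seen, were within 2-fold. Stmn3 had 177 FPKM in Brg1KO and 109 FPKM in WT, and Stmn4 had 41.3 FPKM in Brg1KO and 27.0 FPKM in WT.

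**Figure D3:**
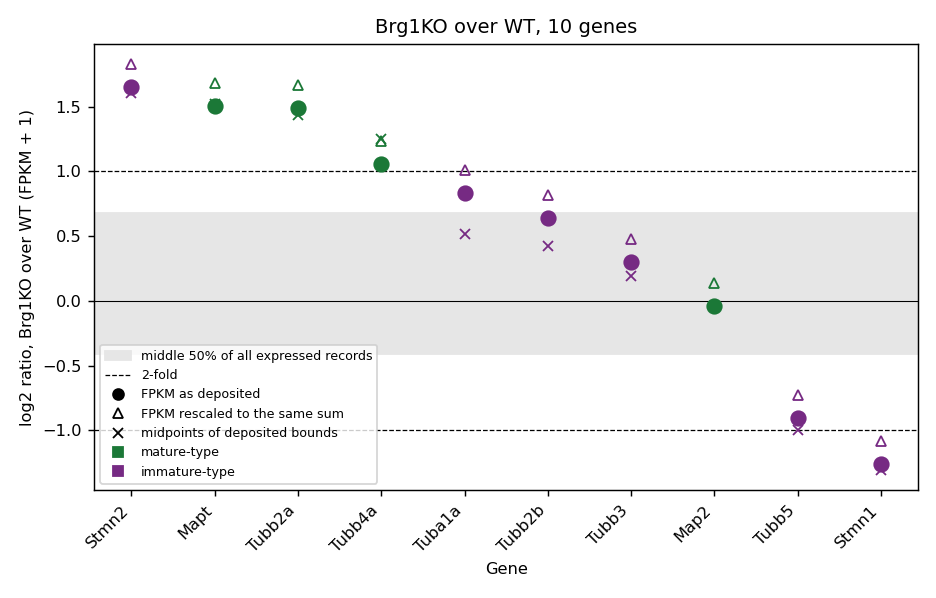
log2 ratio of Brg1KO over WT for the 10 genes, mature-type in green and immature-type in purple; dots are FPKM as deposited, triangles FPKM rescaled to the same sum, crosses the bound midpoints, dashed lines the 2-fold rule and the grey band the middle 50% of all expressed records. Stmn2, Mapt and Tubb2a lie above 1 by all 3 measures, Stmn1 below -1 by all 3, Tubb3 and Map2 inside the band.

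Set against each other, the mature-type genes had a median log2 ratio of 1.27 and the immature-type genes one of 0.47, a difference of 0.80. The classes overlapped widely. The mature-type ratios ran from -0.04 to 1.51 and the immature-type ratios from -1.26 to 1.65. Summed levels of the 4 mature-type genes were 319 FPKM in the Brg1KO library and 169 FPKM in the WT library. Those of the 6 immature-type genes were 2085 FPKM in the Brg1KO library and 2126 FPKM in the WT library. The ratio of the mature-type sum to the immature-type sum was 0.153 in Brg1KO and 0.0794 in WT. From the midpoints the immature-type sum was 2662 in Brg1KO and 3299 in WT, so the nearly equal sums held only for the FPKM. The mature-type sum from the midpoints was 354 in Brg1KO and 177 in WT. Immature-type transcripts were thus the bulk of the sum in both libraries. The class border mattered: with Tubb3 and Stmn2 counted as mature-type the difference of medians was 1.40.

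The order of levels also differed. In Brg1KO it ran, from the highest, Tuba1a, Tubb5, Tubb2b, Stmn1, Stmn2, Tubb3, Tubb4a, Tubb2a, Map2 and Mapt. In WT it ran Tubb5, Stmn1, Tuba1a, Tubb3, Tubb2b, Stmn2, Map2, Tubb4a, Tubb2a and Mapt. No spread between replicates exists, so it cannot be said which neighbours in these orders differ. By the midpoints Stmn1 led in WT and was next after Tuba1a in Brg1KO.

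Promoter sequences from RefSeq on GRCm38.p6, 250 bases before to 50 after the start of the gene, were held for 6 of the 10 genes. Those of Tubb2a and Tubb4a, at least 2-fold higher in Brg1KO, and of Tubb5, lower there but inside the 2-fold rule, are shown because their levels moved apart. Capitals mark matches on either strand to the GC box GGGCGG, the CCAAT box, the TATA box TATAAA, the E-boxes CAGCTG and CAGATG, the GLI motif TGGGTGGTC, or the E2F motifs TTTCGCGC and TTTGGCGC.
Tubb2a, chr13:34077959-34078258, minus strand: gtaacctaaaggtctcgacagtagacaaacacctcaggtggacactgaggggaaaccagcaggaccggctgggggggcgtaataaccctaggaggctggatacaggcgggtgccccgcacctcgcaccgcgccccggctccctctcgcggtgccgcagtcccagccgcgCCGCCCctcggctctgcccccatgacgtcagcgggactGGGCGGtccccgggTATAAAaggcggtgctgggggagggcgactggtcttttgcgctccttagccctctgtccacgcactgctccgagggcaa
Tubb4a, chr17:57087551-57087850, minus strand: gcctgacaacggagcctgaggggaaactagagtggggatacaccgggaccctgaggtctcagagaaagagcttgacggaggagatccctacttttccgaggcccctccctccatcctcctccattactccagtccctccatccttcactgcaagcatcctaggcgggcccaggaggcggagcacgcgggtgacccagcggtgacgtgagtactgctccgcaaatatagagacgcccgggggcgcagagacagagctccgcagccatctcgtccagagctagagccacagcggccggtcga
Tubb5, chr17:35838252-35838551, minus strand: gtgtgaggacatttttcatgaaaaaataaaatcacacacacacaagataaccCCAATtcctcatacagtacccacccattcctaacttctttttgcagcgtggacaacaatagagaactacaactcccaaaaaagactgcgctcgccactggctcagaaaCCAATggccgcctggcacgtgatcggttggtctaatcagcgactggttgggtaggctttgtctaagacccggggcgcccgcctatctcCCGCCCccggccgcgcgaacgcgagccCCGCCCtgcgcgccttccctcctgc
The Tubb2a window held 2 GC boxes and 1 TATA box, and the Tubb5 window 2 GC boxes and 2 CCAAT boxes. The Tubb4a window held 0 matches to any of these letters. Of all 32851 promoter windows, 35.7% held a GC box, 37.4% a CCAAT box and 13.6% a TATA box. The E-boxes were found in 16.3% (CAGCTG) and 17.2% (CAGATG) the GLI motif in 0.253%, and the E2F motifs in 0.323% (TTTCGCGC) and 0.514% (TTTGGCGC), and none of them was in the 6 windows. No matches overlap in the windows shown. A match or its lack is a description of the letters.

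The wider microtubule system, 130 expressed genes of 12 lists without the 10 genes, had 27 (20.8%) past the rule upward and 15 (11.5%) past it downward in Brg1KO, near the 16.1% and 8.67% of all records. Dcx, listed at 0 in WT in a failed record, is 1 of the 27, and 26 of 129 were higher without it. The lists differed in direction, and each of their counts stands against the same shares of all records. Proteins of the mitotic spindle were lower, 10 of 12 by at least 2-fold and 0 higher, with a median log2 ratio of -1.49. Kif23, a motor of the central spindle, had 4.98 FPKM in the Brg1KO library and 22.1 FPKM in the WT library. Kif11, the motor that separates spindle poles, had 10.6 FPKM in Brg1KO and 41.2 FPKM in WT. The spindle assembly proteins Tacc3 (11.0 and 42.7 FPKM in Brg1KO and WT) and Tpx2 (8.54 and 28.0 FPKM) were lower as well. Precursor and cell cycle markers, given above, were lower in the same library.

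Genes of gamma-, delta- and epsilon-tubulin and of factors that start new microtubules were mixed. Of these 18, 3 were at least 2-fold lower and 2 higher, with a median of -0.38. The lower ones were Nedd1, which brings gamma-tubulin rings to the spindle (6.25 FPKM in Brg1KO, 20.9 FPKM in WT), and the augmin subunits Haus4 (2.50 and 8.15 FPKM) and Haus6 (5.61 and 13.3 FPKM). Haus6 was inside the rule after rescaling to the same sum (-0.96). The higher ones were Tubgcp5 (14.3 FPKM in Brg1KO, 6.51 FPKM in WT, but a log2 ratio of 0.83 from the midpoints) and Tubg2, named after its value was seen (4.29 and 0.940 FPKM). Tubgcp5 was also inside the rule after division by the upper quartile (0.99) or centring (0.94). The 7 folding cofactors, which assemble the tubulin pair, were all within 2-fold, with Tbca at 55.5 FPKM in Brg1KO and 65.1 FPKM in WT (log2 ratio -0.23, or -0.48 from the midpoints) and Tbcb at 40.1 and 45.4 FPKM.

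Structural microtubule-associated proteins, Map2 and Mapt among them, were at least 2-fold higher for 9 of 19 and lower for 0, with a median of 0.87. One of the 9 is Dcx, whose WT record failed, and without it 8 of 18 were higher with a median of 0.71. With only genes of at least 5 FPKM in 1 library the median was 0.12. Tppp, a tubulin polymerisation protein of oligodendrocytes, had 9.70 FPKM in the Brg1KO library and 1.93 FPKM in the WT library. Map1a, of mature dendrites and axons, had 8.29 FPKM in Brg1KO and 1.79 FPKM in WT. Dcx, which stabilises microtubules in migrating neurons, had 64.6 FPKM in Brg1KO and was listed at 0 in WT where its status is FAIL, and it gets no fold. Of 16 motor genes of neuronal transport 6 were higher and 0 lower (median 0.81). The dynein intermediate chain Dync1i1 had 6.83 FPKM in Brg1KO and 0.144 FPKM in WT. The kinesin motors Kif5a (23.2 FPKM in Brg1KO, 6.81 FPKM in WT) and Kif1a (39.9 and 14.7 FPKM) and the kinesin light chain Klc2 (18.7 and 5.91 FPKM) were also higher.

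At microtubule ends 4 of 17 genes were higher (23.5%) and 0 lower (median 0.23), not far from the shares of all records. The end-binding gene Mapre3, enriched in neurons, had 26.7 FPKM in the Brg1KO library and 8.25 FPKM in the WT library. The plus-end gene Clip1 had 7.08 FPKM in Brg1KO and 1.48 FPKM in WT. Mapre2 (43.4 FPKM in Brg1KO, 21.2 FPKM in WT) sat on the 2-fold limit and was inside it after division by the upper quartile (0.96) or centring (0.91). Nav3, named after its value was seen, had 2.44 and 0.699 FPKM and was likewise inside it under both scalings. Of 6 severing enzymes 1 was lower, Fignl1, with 7.60 FPKM in Brg1KO and 21.1 FPKM in WT, and Spast had 22.0 and 24.6 FPKM.

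Enzymes that modify alpha- or beta-tubulin were higher for 4 of 17 (23.5%) and lower for 0 (median 0.44), again not far from the shares of all records. Ttll7, which adds glutamate chains to tails of the kind shown for beta-tubulin, had 10.2 FPKM in the Brg1KO library and 0.512 FPKM in the WT library (log2 ratio 2.89). Ttll3, a glycine-adding enzyme, had 17.7 FPKM in Brg1KO and 1.85 FPKM in WT. Sirt2, an alpha-tubulin deacetylase found in myelinating cells, had 86.1 FPKM in Brg1KO and 35.9 FPKM in WT (log2 ratio 1.24, or 1.64 from the midpoints). Ttll11, named after its value was seen, had 1.61 and 0.279 FPKM and was inside the rule after centring. Kinases that act on tau and MAP2 were nearly all within 2-fold. The exception among 12 was Cdk5r2, an activator of Cdk5, with 4.38 FPKM in Brg1KO and 0.715 FPKM in WT, named after its value was seen. Cdk5 itself had 36.9 FPKM in Brg1KO and 27.8 FPKM in WT, and Gsk3a had 34.3 and 40.2 FPKM.

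**Figure D4:**
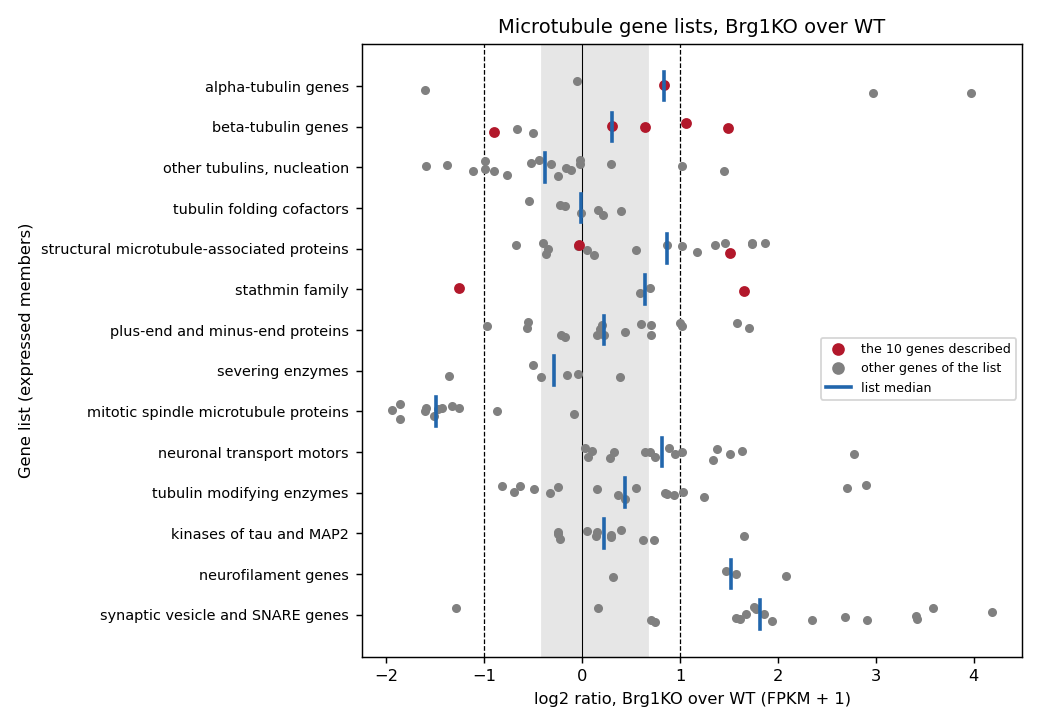
log2 ratio of Brg1KO over WT for each expressed gene of 14 lists, with the 10 genes in red, other genes in grey and the list median as a blue bar; dashed lines are the 2-fold rule and the grey band is the middle 50% of all expressed records. Spindle proteins lie to the left (median -1.49), synaptic and neurofilament genes to the right (medians 1.82 and 1.52); Dcx, listed at 0 in WT, is in its list's median but not drawn.

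Other lists of neuronal genes were set beside the 10 genes. Synaptic vesicle and SNARE genes were at least 2-fold higher for 14 of 18 and lower for 1 (median 1.82), and neurofilament genes were higher for 3 of 4. The neurofilament median was 1.52, but 2.92 from the midpoints, 2.15 with 0.5 FPKM added and 3.49 with 0.1 FPKM added, so its size is not well fixed. The vesicular glutamate transporter Slc17a7 had 43.8 FPKM in the Brg1KO library and 1.45 FPKM in the WT library. The calcium sensor Syt1 had 21.2 FPKM in Brg1KO and 0.854 FPKM in WT, Sv2a 47.5 and 3.53 FPKM, and Vamp1 44.4 and 3.26 FPKM. The lower synaptic gene was Slc17a6, another glutamate transporter, with 10.6 FPKM in Brg1KO and 27.4 FPKM in WT, named after its value was seen. The neurofilament genes Nefl (3.93 FPKM in Brg1KO, 0.161 FPKM in WT), Nefm (2.32 and 0.196 FPKM) and Nefh (2.04 and 0.0253 FPKM) were low, and Nefm and Nefh are named after their values were seen. From the midpoints their log2 ratios were 3.35 for Nefl, 2.62 for Nefm and 3.22 for Nefh. Among genes of at least 5 FPKM only Ina (17.2 and 13.6 FPKM) remained, with a log2 ratio of 0.32. The 10 genes had a median of 0.74, and the general neuron markers one of 0.51 with 3 of 7 higher. The difference between these medians cannot be tested with 1 library per genotype. Some of the higher general neuron markers, Syt1 among them, are also counted in the synaptic list.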

How the data were processed

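Per the file headers, each deposited file holds FPKM values made by the authors, 1 per gene record, beside 2 bounds and a status word. Cuffdiff 2.1.1 and the build mm10 are named in the submitters' processing notes, which do not say what each was used for. Aligner, annotation, filters, strand and read length: not given in the sources used here. Since the files hold no counts, depth is unknown and no interval is given for any value.

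The tables were joined on symbol and locus. Start positions count from 0 in the files and are given here from 1. Symbols absent from the tables were matched through RefSeq synonyms. Records of at least 1 FPKM in 1 library were kept, 1 FPKM was added before log2 ratios, and 2-fold was the call. Since there was 1 library per genotype, no test was made. The arithmetic was checked on simulated data. Shared 50- and 100-base words were counted over all GENCODE M21 transcripts on both strands, and coding sequences were aligned with biopython 1.88. Other tools were matplotlib 3.10.9, pandas 2.3.3, numpy 2.4.6 and Python 3.11.15.

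The 10 genes, the lists and the alternatives were chosen with earlier results of these data known. The text names the 10 genes, Smarca4, and from each list up to 4 genes past the 2-fold rule, those furthest from 0 first, among genes that reached 5 FPKM in 1 library, or the 2 most abundant where fewer than 2 reached it. Other genes are marked where named, complete the tubulin families, or, as Xist, describe the libraries.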

Additional observations from a re-analysis of the deposited data

How the results depend on the processing

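Ratios of the 10 genes were recomputed with 0.1 or 0.5 FPKM added, under 4 other scalings, from the bound midpoints and with records of status OK only. Of these 80 values 78 kept their side of the 2-fold rule. All 10 genes have status OK in both libraries, so the status setting repeats their main ratios and could not change a side. Tuba1a passed it after rescaling to the same sum (1.01), and Tubb4a fell inside it after centring (0.97). Of 399 such values for the other 50 named genes, 390 kept their side and 9 fell inside the rule. Here too the values under the status setting are copies of the main ones. For 13 of these 50 genes the values were added after the data were seen, and Dcx has none with status OK. With a 1.5-fold rule 6 of the 10 genes were higher and 2 lower, and 43 of 130 other microtubule genes were higher and 26 lower, where 28.1% and 18.0% of all records were. With a 4-fold rule 0 of the 10 genes were higher and 0 lower, and 6 of the 130 others were higher and 0 lower, where 4.17% and 1.5% of all records were. The difference between mature-type and immature-type medians was 1.03 from the midpoints, 1.40 with Tubb3 and Stmn2 counted as mature-type, and 1.96 for Tubb4a, Map2 and Mapt against Tubb5, Tubb2b and Stmn1. The last split leaves out Tubb2a, Tuba1a, Tubb3 and Stmn2. It was chosen with earlier results known, so it is no independent check. From the midpoints the alpha-tubulin share differed by 12.5 points for Tuba1a and -19.5 points for Tuba1b. On the log2 scale, ratios from the midpoints differed between libraries by 1.03 for Tubb2a to Tubb2b, 2.26 for Tubb4a to Tubb5 and 1.31 for the mature-type to the immature-type sum. The cause of these shifts was not tested. No paired analysis was possible because each genotype has 1 library. Depth is unknown, so no difference can be set against counting error.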
